A study of Mus musculus with 2 samples.

Results

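The circadian clock and the glucocorticoid response were followed through 10 genes in lung endothelial cells (ECs) of mice that had received melanoma cells or vehicle 6 h earlier. The genes were the clock activator Arntl, the clock repressors and output genes Per1, Per2, Nr1d1, Nr1d2, Dbp and Tef, and the glucocorticoid-induced genes Fkbp5, Tsc22d3 and Sgk1. They were chosen by symbol among the 32285 genes of each count matrix, with earlier results of these data known. All 10 had at least 1 UMI (unique molecular identifier, 1 captured RNA molecule) in both libraries. The question was whether the clock or the response to stress hormone differed between the libraries. The control library came from C57BL/6 mice of genotype WT given PBS through the tail vein, and the B16-F10 6 h library from WT C57BL/6 mice given 400000 cells of the syngeneic melanoma line B16-F10 in 100 µl of PBS. The animals were males 8 to 10 weeks old. Lungs were taken 6 h after either injection, digested at body temperature with collagenase, and sorted for Pecam1-positive, Ptprc-negative cells, with the dye-labelled melanoma cells added back to the library of the injected mice. The labels give 2 mice per treatment, pooled into 1 library for each group. The study's methods give a larger number of mice for its experiment with 400000 injected cells. The hours of injection and of tissue collection are not given in the sources used here, so any difference in clock time between the libraries and the effect of the injection cannot be told apart.

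After the filters of 1000 to 5000 genes and under 20% mitochondrial UMIs per cell and the removal of doublets, 7830 control and 7767 B16-F10 6 h cells with 60840330 and 67372954 UMIs remained, out of 85794655 and 104978816 UMIs over all barcodes of the libraries. Clusters were named from marker genes. The general capillary-like (gCap) class held 4685 control and 4237 B16-F10 6 h cells, the aerocyte capillary-like (aCap) class 1450 and 969, the artery-like class 330 and 254, the vein-like class 335 and 322 and the lymphatic-like (LEC) class 58 and 51. All 8 endothelial markers were detected in each of these classes. The 8 lymphatic markers were detected in the gCap sums as well, so their level sets the LEC class apart. They summed to 28422 and 37957 counts per 1000000 UMIs in control and B16-F10 6 h LECs, and to 76.1 and 67.4 in gCap cells. The libraries shared 19 cell barcodes. With 1 library per group no test between groups was possible, so the UMIs of each class were added up within a library and given as CPM, counts per 1000000 UMIs of that sum, and all intervals are exact 95% intervals that cover counting error only. A gene was set apart as higher or lower when its log2 ratio of B16-F10 6 h over control was at least 0.5 in size, its interval did not reach 0 and the sums together held at least 50 UMIs.

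The clock is a feedback loop that runs in nearly every cell. ARNTL pairs with CLOCK and switches on genes with an E-box in their promoters, among them the Per, Cry and Nr1d genes and the transcription factors Dbp and Tef. The PER and CRY proteins then block that pair, and the NR1D proteins repress Arntl through ROR elements, so that Arntl and its targets peak at different times of day. Glucocorticoids, the adrenal steroids released daily and under stress, enter the cell and bind the receptor NR3C1, which binds glucocorticoid response elements and induces Fkbp5, Tsc22d3, Sgk1 and also Per1.

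The promoters of several of these genes carry the sequence elements through which both systems act, and the stretches that hold them are shown here to place the genes in that wiring. RefSeq gives 19 promoter windows of 300 bases for 9 of the 10 genes on GRCm38.p6, from 250 bases before to 50 after a transcription start. Both strands were searched for the E-box CACGTG, found in 7.15% of all 32851 mouse windows, the E-prime box CACGTT, in 4.68%, the D-box TTATGNAA, in 3.38%, the ROR elements TAGGTCA or TGGGTCA, in 6.45%, and the glucocorticoid response element GNACANNNTGTNC, in 0.475%. None of these patterns contains another of them. An E-box stood in 5 windows of 4 of the genes, Per1, Tef, Fkbp5 and Sgk1, the E-prime box in Nr1d1, the D-box in Per1, the ROR element in Arntl and the glucocorticoid response element in Sgk1. The windows of Nr1d2, Dbp and Tsc22d3 held none of these letters. The stretches below run 5′ to 3′ on the strand of the gene with the matched elements in capitals; a match is a run of letters and not a measured binding site.
Per1 (chr11:69098699-69098947, plus strand, within an intron; E-box and D-box): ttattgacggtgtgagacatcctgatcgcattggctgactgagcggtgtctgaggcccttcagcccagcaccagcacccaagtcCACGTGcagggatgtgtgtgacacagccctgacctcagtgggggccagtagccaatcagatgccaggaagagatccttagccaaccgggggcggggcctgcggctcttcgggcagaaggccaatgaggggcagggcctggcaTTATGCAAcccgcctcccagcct
Sgk1 (chr10:21993640-21993749, plus strand, within an intron; E-box and glucocorticoid response element): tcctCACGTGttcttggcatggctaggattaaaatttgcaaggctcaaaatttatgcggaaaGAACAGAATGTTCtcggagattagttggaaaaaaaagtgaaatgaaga
Tef (chr15:81811226-81811325, plus strand, within an intron; E-box): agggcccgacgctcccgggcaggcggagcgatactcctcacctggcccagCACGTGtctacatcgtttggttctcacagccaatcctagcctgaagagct
Fkbp5 (chr17:28486260-28486359, minus strand, within an intron; E-box): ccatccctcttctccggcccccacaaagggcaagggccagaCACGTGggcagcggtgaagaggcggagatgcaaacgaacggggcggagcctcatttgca
Nr1d1 (chr11:98775378-98775457, minus strand, upstream of the gene; E-prime box read as AACGTG): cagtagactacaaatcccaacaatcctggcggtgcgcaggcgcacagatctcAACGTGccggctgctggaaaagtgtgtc
Arntl (chr7:113207529-113207558, plus strand, exonic, in the annotated untranslated region; ROR element): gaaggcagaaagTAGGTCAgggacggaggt
Relative to the transcription start, the E-box of Per1 began at base -166 and its D-box at -24. The glucocorticoid response element of Sgk1 began at base -188 and its E-box at -246. The ROR element of Arntl began at base 31 after the start.

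In gCap cells, the largest class, Fkbp5 was higher in the B16-F10 6 h library and Arntl, Per2, Tef and Tsc22d3 were lower, while Per1, Nr1d1, Nr1d2, Dbp and Sgk1 did not pass the limits. That is 1 of 10 genes higher, where 8.54% of all 13143 genes measured in gCap cells were higher, and 4 lower, where 11.1% were lower. The median log2 ratio was -0.15 over the 6 clock repressors and output genes and -0.47 over the 3 glucocorticoid-induced genes, beside -0.04 over all genes. The first of these medians was 0.03 with all endothelial cells summed and -0.45 over the 3 genes left in gCap cells without other cells' markers, so its sign depended on the cells summed. In aCap cells 2 of the 9 genes with enough UMIs were higher, Nr1d1 and Nr1d2 (8.64% of all genes), and 4 were lower, Arntl, Per2, Tsc22d3 and Sgk1 (9.82%). In artery-like cells 1 of 8 was higher, Fkbp5 (9.52%), and 2 were lower, Arntl and Tef (8.67%). In vein-like cells 3 of 8 were higher, Nr1d1, Nr1d2 and Fkbp5 (5.96%), and 1 was lower, Arntl (6.65%). In LECs, where only 4 genes had enough UMIs, 1 was higher, Fkbp5 (7.64%), and 0 were lower (7.07%). Arntl thus stood on the lower side in each of the 4 blood vessel classes and Fkbp5 on the higher side in every class except aCap.

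**Figure D1:**
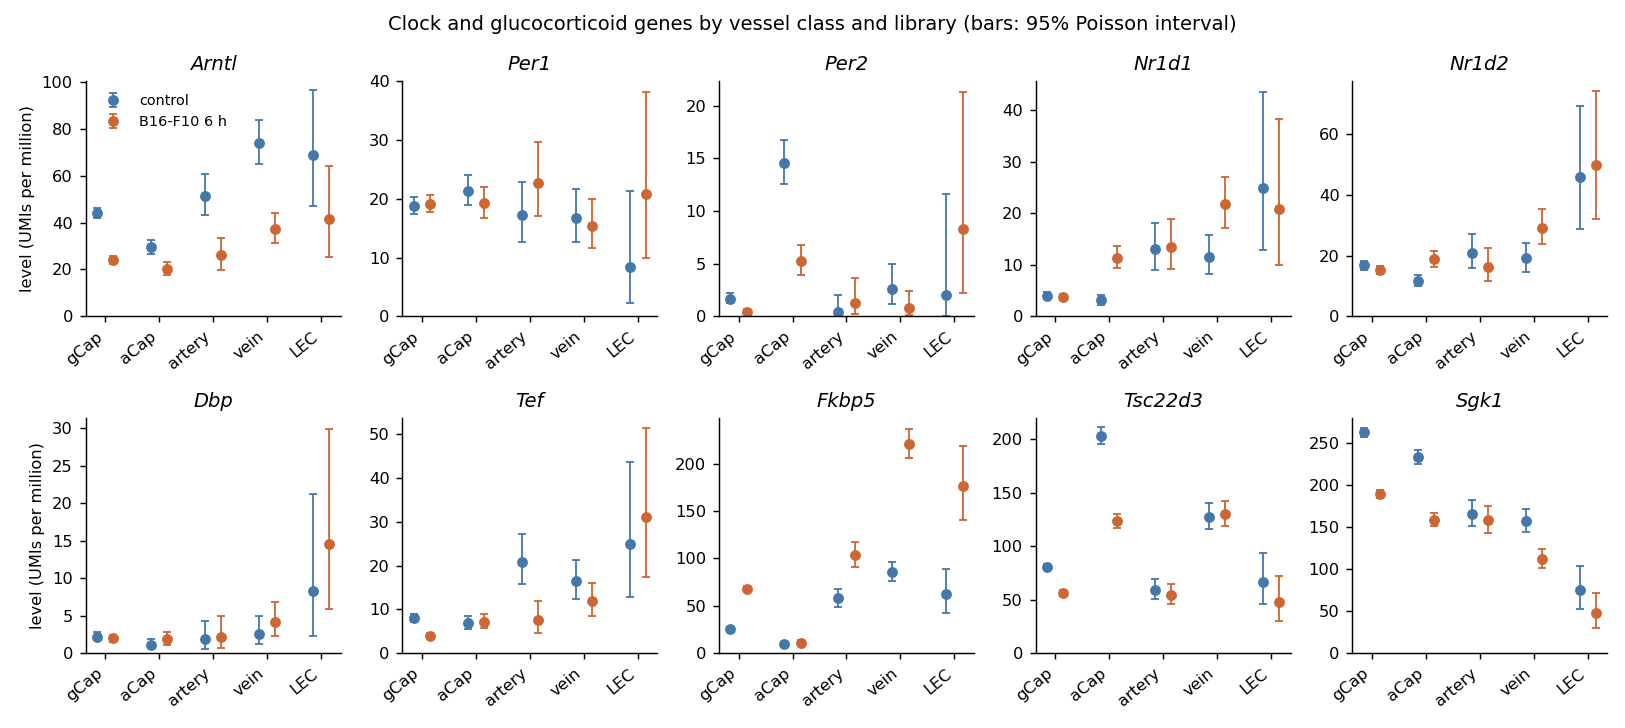
Levels of the 10 genes by vessel class, in CPM of the class's UMIs, for the control and the B16-F10 6 h library, with exact Poisson 95% intervals as bars and 1 library per point. Arntl lies lower in the B16-F10 6 h library in each class, with overlapping intervals in LECs, and Fkbp5 lies higher in gCap, artery, vein and LEC cells.

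Arntl (ENSMUSG00000055116, GRCm38 chr7:113207465-113314126, plus strand), the activator of the loop, was counted with 1532 UMIs in gCap cells of the control and 884 in those of the B16-F10 6 h library. Its level was 43.9 CPM in control and 24.0 CPM in B16-F10 6 h gCap cells, a log2 ratio of -0.87 (-0.99 to -0.75). In aCap cells it stood at 29.6 and 20.2 CPM, a log2 ratio of -0.55 (-0.80 to -0.31). The reading was lower in the B16-F10 6 h library in both capillary classes, and the intervals of these ratios overlapped. In artery-like cells the level was 51.5 CPM in control and 26.1 CPM after B16-F10 injection (log2 ratio -0.98, -1.44 to -0.54). In vein-like cells it was 73.9 and 37.2 CPM (-0.99, -1.30 to -0.68). In LECs it was 68.6 and 41.6 CPM from 33 and 20 UMIs, and the interval of the log2 ratio of -0.72 reached from -1.60 to 0.12, so a difference was not detectable there at this depth. In the control library Arntl ran from vein through LEC, artery and gCap down to aCap cells, and of these neighbours only gCap and aCap were further apart than their counting error.

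Per1 and Per2 encode the PERIOD repressors. Per1 (ENSMUSG00000020893, chr11:69095217-69109960, plus strand) gave 654 and 703 UMIs in control and B16-F10 6 h gCap cells, 18.8 and 19.1 CPM, with a log2 ratio of 0.03 (-0.13 to 0.18). By counting error alone, that interval leaves room only for a small difference in either direction. In gCap cells without other cells' markers, however, the log2 ratio of Per1 was -0.45. In artery-like cells the log2 ratio of Per1 was 0.40 (-0.19 to 1.00), and its interval spanned 0 in aCap and vein-like cells too. Per2 (ENSMUSG00000055866, chr1:91415982-91459324, minus strand) was sparse in gCap cells, with 59 control and 17 B16-F10 6 h UMIs, 1.69 and 0.46 CPM (log2 ratio -1.87, -2.74 to -1.07). In aCap cells Per2 had 191 and 57 UMIs, 14.5 and 5.24 CPM, a log2 ratio of -1.47 (-1.93 to -1.04). In the control library Per2 was higher in aCap cells than in any other class beyond counting error of the next class, vein. In artery, vein and LEC cells it had at most 9 UMIs in a library, too few to compare.

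Nr1d1 and Nr1d2 encode the REV-ERB nuclear receptors that repress Arntl. Nr1d1 (ENSMUSG00000020889, chr11:98767932-98775333, minus strand) stood at 3.99 CPM in control and 3.70 CPM in B16-F10 6 h gCap cells, from 139 and 136 UMIs. It overlaps Thra on the opposite strand, and whether the counting used strand is not given in the sources used here. In aCap cells it had 41 UMIs in control and 124 in the B16-F10 6 h library, 3.12 and 11.4 CPM, a log2 ratio of 1.87 (1.35 to 2.41). In vein-like cells it had 40 and 79 UMIs, 11.5 and 21.8 CPM, a log2 ratio of 0.91 (0.35 to 1.5). Nr1d1 was thus higher in aCap and vein-like cells and level in gCap cells, where the sign of its ratio depended on how cells were sampled: the log2 ratio was -0.11 as summed and 0.31 with every cell thinned to 2000 UMIs. Nr1d2 (ENSMUSG00000021775, chr14:18204054-18239127, minus strand) gave 584 and 562 UMIs in gCap cells, 16.7 and 15.3 CPM. In aCap cells it read 11.6 and 18.7 CPM, a log2 ratio of 0.69 (0.38 to 1.00), and in vein-like cells 19.1 and 29.2 CPM, a log2 ratio of 0.62 (0.16 to 1.08). Both REV-ERB genes were therefore higher in the sums of the same classes, though Nr1d2 was not clear of 0 in any single aCap cluster.

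Dbp and Tef encode PAR bZIP factors that bind D-boxes and carry clock time to other genes. Dbp (ENSMUSG00000059824, chr7:45705088-45710203, plus strand) had 77 and 72 UMIs in control and B16-F10 6 h gCap cells, a log2 ratio of -0.17 (-0.66 to 0.31), and under 50 UMIs in the other classes. Tef (ENSMUSG00000022389, chr15:81802421-81826863, plus strand) had 278 and 147 UMIs in gCap cells, 7.97 and 4.0 CPM, a log2 ratio of -1.0 (-1.29 to -0.70). In artery-like cells Tef stood at 20.9 and 7.57 CPM (log2 ratio -1.47, -2.32 to -0.68). Its reading was alike in aCap cells, at 6.93 and 7.16 CPM, and its interval reached 0 in vein-like cells (-0.47, -1.08 to 0.12). The output genes therefore did not move as a group: Tef was lower in gCap and artery-like cells while Dbp was not set apart in any class.

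**Figure D2:**
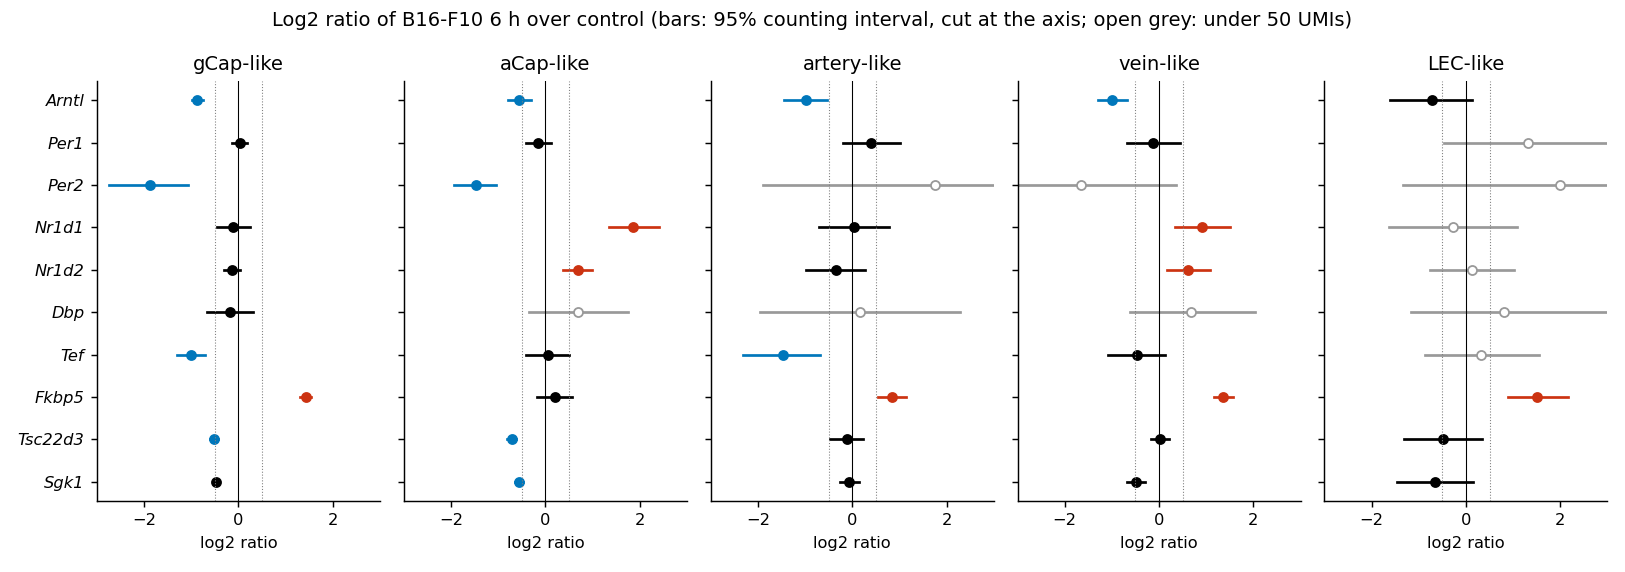
Log2 ratio of B16-F10 6 h over control for each of the 10 genes and each vessel class, with exact conditional binomial 95% intervals as bars and the 0.5 limits as lines. Arntl lies below 0 in all classes, Nr1d1 and Nr1d2 lie above 0.5 in aCap and vein-like cells, and Fkbp5 reaches 1.42 in gCap and 1.5 in LEC cells.

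Arntl and its repressors peak at different phases of the daily cycle, so their share of each other's UMIs was read within each library, a measure added after the values had been seen that no scaling between libraries can move. Arntl made up 67.9% of the summed Arntl, Nr1d1 and Nr1d2 UMIs in control gCap cells (66.0 to 69.9%) and 55.9% in B16-F10 6 h gCap cells (53.4 to 58.3%). In aCap cells the share was 66.7% in control and 40.1% in the B16-F10 6 h library. In vein-like cells it was 70.7 and 42.2%. The share was lower after B16-F10 injection in all 5 classes, with overlapping intervals in artery-like cells (60.3 and 46.6%) and LECs (49.3 and 37.0%).

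**Figure D3:**
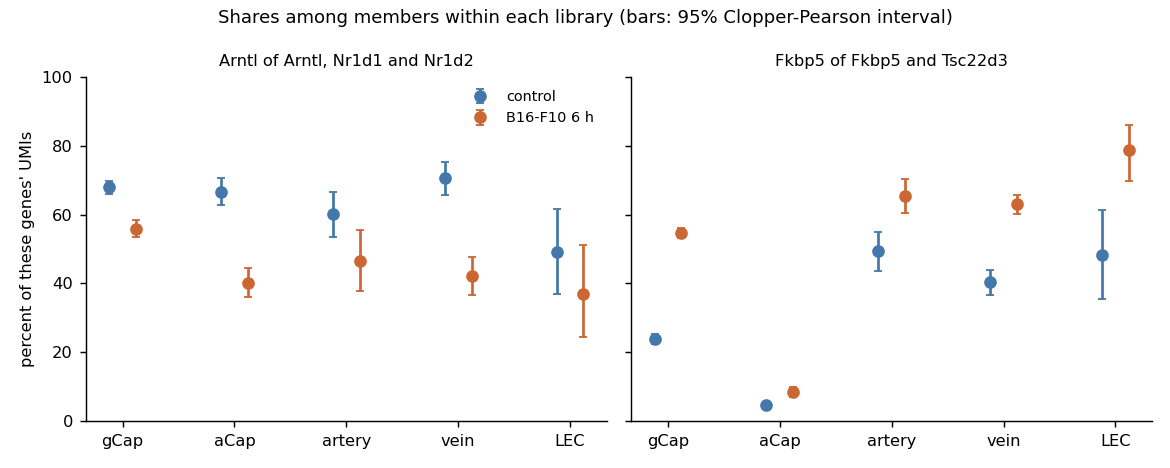
Share of Arntl among the Arntl, Nr1d1 and Nr1d2 UMIs, and of Fkbp5 among the Fkbp5 and Tsc22d3 UMIs, in percent, by vessel class and library, with Clopper-Pearson 95% intervals as bars. In B16-F10 6 h cells the Arntl share is lower in each class, and the Fkbp5 share is higher, from 8.31% in aCap to 78.7% in LEC cells.

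Among the glucocorticoid-induced genes the 3 readings went different ways. Fkbp5 (ENSMUSG00000024222, chr17:28399094-28517527, minus strand), which encodes a co-chaperone that binds the receptor complex and dampens its response to hormone, gave 881 UMIs in gCap cells of the control and 2493 in those of the B16-F10 6 h library. Its level was 25.3 and 67.8 CPM, 2.68-fold, a log2 ratio of 1.42 (1.31 to 1.54). In vein-like cells Fkbp5 stood at 86.0 and 221 CPM (log2 ratio 1.36, 1.17 to 1.56). The LECs gave 62.4 and 177 CPM from 30 and 85 UMIs (1.5, 0.89 to 2.15). In artery-like cells the difference was smaller than in gCap cells, at 57.8 and 103 CPM (0.84, 0.54 to 1.14). In aCap cells Fkbp5 was low in both libraries, at 9.74 and 11.2 CPM, with a log2 ratio of 0.20 (-0.17 to 0.57). The order of the classes by Fkbp5 level, vein, LEC, artery, gCap and aCap, was the same in both libraries.

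Tsc22d3 (ENSMUSG00000031431, chrX:140539528-140600659, minus strand), which encodes the glucocorticoid-induced leucine zipper GILZ, pointed the other way in capillaries. Its UMIs were 2811 and 2066 in gCap cells, 80.6 and 56.2 CPM, a log2 ratio of -0.52 (-0.60 to -0.44). In aCap cells it read 203 and 124 CPM, a log2 ratio of -0.72 (-0.81 to -0.62) over clusters of opposite sign, read one by one below. In vein-like cells it had 442 and 472 UMIs and a log2 ratio of 0.03, and in artery-like cells the log2 ratio was -0.12. In LECs the interval spanned 0 (-0.48, -1.32 to 0.34), so the limits were passed in the capillary classes only. Sgk1 (ENSMUSG00000019970, chr10:21882184-21999903, plus strand), the serum- and glucocorticoid-regulated kinase, gave 9147 and 6946 UMIs in gCap cells, 262 and 189 CPM, a log2 ratio of -0.47 (-0.52 to -0.43) that lay just inside the limit. In aCap cells Sgk1 stood at 233 and 159 CPM (-0.56, -0.64 to -0.47). In vein-like cells its log2 ratio was -0.49 (-0.68 to -0.30) and in artery-like cells -0.06. Sgk1 kept the order gCap, aCap, artery, vein and LEC in both libraries.

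Set against each other, Fkbp5 took 23.9% of the Fkbp5 and Tsc22d3 UMIs of control gCap cells (22.5 to 25.3%) and 54.7% of those of B16-F10 6 h gCap cells (53.2 to 56.1%). The share was 40.3 and 63.0% in vein-like, 49.4 and 65.4% in artery-like and 48.4 and 78.7% in LEC cells. In aCap cells Fkbp5 took 4.58 and 8.31%. The balance of these 2 hormone-induced genes was thus tilted to Fkbp5 in the B16-F10 6 h library in all 5 classes, as the plot of shares among the genes shows.

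The share of cells with a UMI gave the same picture as the sums when each cell was thinned to 2000 UMIs, which left out 62 control and 28 B16-F10 6 h gCap cells. Fkbp5 was then seen in 4.67% of control and 10.1% of B16-F10 6 h gCap cells, against 14.3 and 29.5% before thinning. Arntl was seen in 8.31 and 4.87% (24.2 and 16.8% before thinning). Tsc22d3 was seen in 14.4 and 9.81%, and Sgk1 in 33.3 and 25.8%. In LECs Fkbp5 was seen in 18 of 58 control and 31 of 51 B16-F10 6 h cells before thinning, in 9 of 53 and 16 of 46 with cells thinned to 4000 UMIs, and in 1 of 58 and 22 of 51 at 2000 UMIs. The size of that gap moved with the draw in so few cells. The median depth of gCap cells was 7270 UMIs in control and 8377 in the B16-F10 6 h library. Free RNA, estimated from surfactant and club cell genes, made up 1.49% of control and 2.08% of B16-F10 6 h gCap UMIs and would account for 0.353 and 0.777 CPM of Fkbp5 and 0.350 and 0.364 CPM of Arntl, a small part of either level.

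Within the gCap class, the 5 clusters with at least 200 cells in each library were read one by one. Arntl was lower in 5 of 5, with log2 ratios from -1.07 to -0.59 and no interval reaching 0. Tef was on the lower side in 5 of 5, from -0.97 to -0.47, with 3 intervals clear of 0. Fkbp5 was on the higher side in 5 of 5, from 0.19 to 1.92, with 3 clear of 0. Sgk1 ran from -0.69 to 0.03, with 4 clusters clear below 0. Tsc22d3 ran from -0.76 to 0.48 and was clear below 0 in 2 clusters only. Of the 10 genes, Arntl alone was clear of 0 in all 5 clusters. The share of all genes clear of 0 in all 5 was not counted. Sparse genes had little room to be clear: Per2 had 11 control and 3 B16-F10 6 h UMIs in the cluster led by Chrm2. Per2 and Dbp had 0 UMIs in 1 library, and so no ratio, in some clusters. Tsc22d3 took both signs, with 0 clusters clear above 0, and Per1, Per2, Nr1d1, Nr1d2, Dbp and Sgk1 also took both signs.

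A further gCap cluster, led by Lalba, Tmem252 and Adamts9, held 73 control and 952 B16-F10 6 h cells. In it Fkbp5 stood at 21.5 CPM in control and 127 CPM in B16-F10 6 h cells, a log2 ratio of 2.56. Tsc22d3 stood at 59.2 and 24.7 CPM, a log2 ratio of -1.26, and the log2 ratios of Arntl and Sgk1 were -1.51 and -1.16. Because this cluster was mostly of 1 library, the gCap class was also summed without it, an alternative chosen after the data had been seen. The log2 ratio of Fkbp5 then fell from 1.42 to 0.94 and that of Tsc22d3 went from -0.52 to -0.29, no longer past the limit. Those of Arntl (-0.78), Tef (-0.88) and Per2 (-1.77) kept their side of it, so 3 genes in place of 4 were lower.

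**Figure D4:**
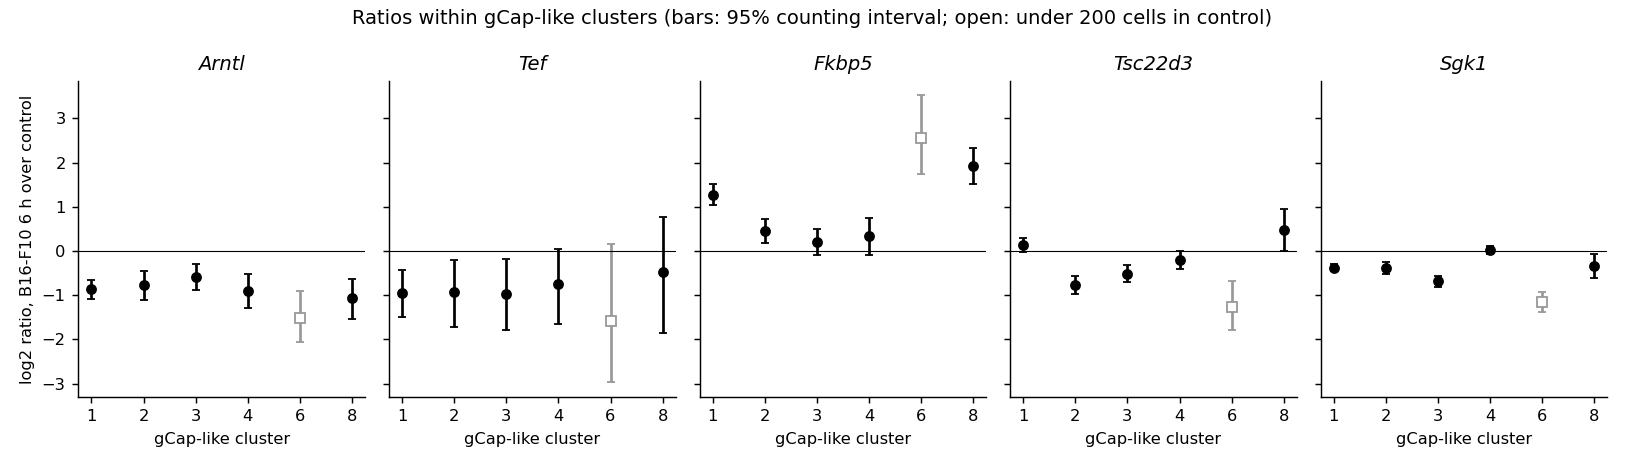
Log2 ratio of B16-F10 6 h over control for Arntl, Tef, Fkbp5, Tsc22d3 and Sgk1 in single gCap-like clusters, with exact conditional binomial 95% intervals as bars. The open point is the cluster with under 200 control cells. Arntl lies below 0 in each of the 5 gCap clusters with at least 200 cells per library, whereas Fkbp5 spreads from 0.19 to 1.92 over the same clusters.

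The study described a reactive capillary (rCap) state of gCap cells, and the genes were therefore also read along a score made of its 34 marker genes in the B16-F10 6 h library alone, where all cells come from injected mice. The markers were chosen by the study on libraries that include these. Of the B16-F10 6 h gCap cells thinned to 2000 UMIs, 1587 had a low score of at most 14 marker UMIs and 1433 a high score of at least 23. The score is a range and not a cell type, and 870 cells lay within 1 UMI of these limits. Fkbp5 stood at 36.9 CPM in low-score and 114 CPM in high-score cells, a log2 ratio of 1.63 (1.32 to 1.94). Tsc22d3 stood at 72.8 and 30.4 CPM (-1.26, -1.63 to -0.90) and Sgk1 at 197 and 143 CPM (-0.46, -0.64 to -0.27). Arntl stood at 26.8 and 19.5 CPM with an interval that reached 0 (-0.45, -0.97 to 0.05). Within 1 library, then, Fkbp5 was higher and Tsc22d3 lower in the cells with more rCap marker RNA, the same directions as between the libraries.

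In aCap cells the readings depended on the cluster. One aCap cluster held 175 control and 790 B16-F10 6 h cells, and the others held 630 and 101 and 645 and 78 cells. In the cluster rich in B16-F10 6 h cells, Per2 stood at 3.99 CPM in control and 5.76 CPM in B16-F10 6 h cells. Its log2 ratio there was 0.53 (-0.55 to 1.81). In the others it stood at 13.6 and 1.87 CPM and at 21.1 and 2.25 CPM. Those B16-F10 6 h levels rest on only 2 and 1 UMIs, and the intervals of the log2 ratios were wide (-5.93 to -0.97 and -8.55 to -0.71). Nr1d1 was on the higher side in all 3, with log2 ratios of 1.43 (0.45 to 2.59), 0.69 (-1.08 to 2.15) and 2.25 (0.55 to 3.77). In the 101 and 78 B16-F10 6 h cells of the other clusters it had only 5 and 6 UMIs. Nr1d2 had log2 ratios of -0.01 (-0.52 to 0.53), 0.28 (-0.75 to 1.18) and 1.06 (-0.03 to 2.03), so its ratio over the summed class was not clear in any of them. Fkbp5 had log2 ratios of 1.15, -0.58 and 1.46 in the same order, so its level ratio over the summed class joined unlike clusters. Tsc22d3 had log2 ratios of 0.22, -1.26 and -1.39. Arntl had log2 ratios of -0.23 (-0.71 to 0.27), -0.14 (-0.82 to 0.48) and -0.10 (-0.91 to 0.62). Each of these intervals held both 0 and the ratio of the summed class, so whether Arntl was lower inside aCap clusters was not detectable at this depth.

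The other genes of the clock were read from lists that go beyond the 10. These and the later lists were chosen with earlier results of these data known. Beside their counts stand the shares over all genes of gCap cells, 8.54% higher and 11.1% lower. Of 9 further repressors and output genes in gCap cells, 6 were lower, 2 were higher and 1 did not pass, with a median log2 ratio of -0.60. The cryptochrome repressors Cry1 (-0.60) and Cry2 (-1.02), the period gene Per3 (-0.55), the PAR bZIP gene Hlf (-1.58), Ciart (-0.67) and Bhlhe41 (-0.89) were the lower ones. Bhlhe40, an E-box-binding repressor that many stimuli induce, was at 3.99 CPM in control and 45.8 CPM in B16-F10 6 h gCap cells, a log2 ratio of 3.52, and the cell cycle kinase gene Wee1 was higher at 0.68. Bhlhe40 was also higher in aCap (1.06), artery-like (1.43) and vein-like cells (1.69), and along the rCap score it stood at 7.56 and 98.7 CPM. Most of this list was therefore on the side of Arntl in gCap cells, with Bhlhe40 far on the other side.

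Among the other genes of the activating arm and Nfil3, which encodes a D-box repressor, 4 of 6 had enough UMIs in gCap cells, of which 1 was lower and 0 were higher. That was Rora, whose product competes with the REV-ERBs at ROR elements and activates Arntl, at 198 and 132 CPM (log2 ratio -0.59). Clock, the partner of Arntl, had a log2 ratio of -0.20 in gCap and -0.51 in aCap cells. Of 8 genes for kinases, ubiquitin ligases and other modifiers of the loop, 1 was higher (Timeless, 0.76), 1 was lower (Sirt1, -0.68) and 6 did not pass, with a median of -0.18.

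The glucocorticoid receptor itself was close to level. Nr3c1 stood at 276 CPM in control and 239 CPM in B16-F10 6 h gCap cells (log2 ratio -0.21). Of 13 genes of the receptor, its chaperones, coactivators and steroid-converting enzymes, 2 were higher, 2 were lower and 9 did not pass, with a median of 0.12. The higher ones were Hsd11b1 (0.69), whose enzyme regenerates active glucocorticoid inside cells, and the chaperone gene Hsp90aa1 (0.54). The lower ones were the mineralocorticoid receptor gene Nr3c2 (-0.69) and the coactivator gene Ncoa3 (-0.61).

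Other targets of the receptor were divided by whether inflammatory signals are also known to induce them. Both lists were chosen with earlier results of these data known, so the contrast between them is a description only. Over all genes of gCap cells 8.54% were higher and 11.1% lower. Of 14 targets in the first list, 3 were higher, 4 were lower and 7 did not pass in gCap cells, with a median of -0.10. Higher were Bcl6 (1.65), Ddit4 (0.91) and Errfi1 (0.77). Lower were the sulfotransferase gene Sult1a1, at 82.3 and 22.4 CPM (-1.88), Fam107a (-1.46), Txnip (-0.83) and Mertk (-0.53). Klf9 (-0.08) and Zbtb16 (0.17), transcription factor genes that the receptor induces in many tissues, did not pass and are named after their values were seen. The list thus held both directions, as the 3 glucocorticoid-induced genes did.

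Of the 9 targets that inflammatory signals also induce, 8 were higher, 0 were lower and 1 did not pass in gCap cells, with a median of 1.73. The metallothionein genes Mt1, at 1.95 and 42.5 CPM (log2 ratio 4.45), and Mt2 (5.57) moved most. Cebpd (2.17), Zfp36 (1.91), Lcn2 (1.73), Cebpb (1.52), Cdkn1a (0.92) and Nfkbia (0.54) were also higher. Fkbp5 was on the higher side as these genes were, and Tsc22d3 and Sgk1 were not. The first list of targets also held 3 higher genes, beside 4 lower ones. The part of inflammatory signals in the values of the 10 genes was not tested.

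**Figure D5:**
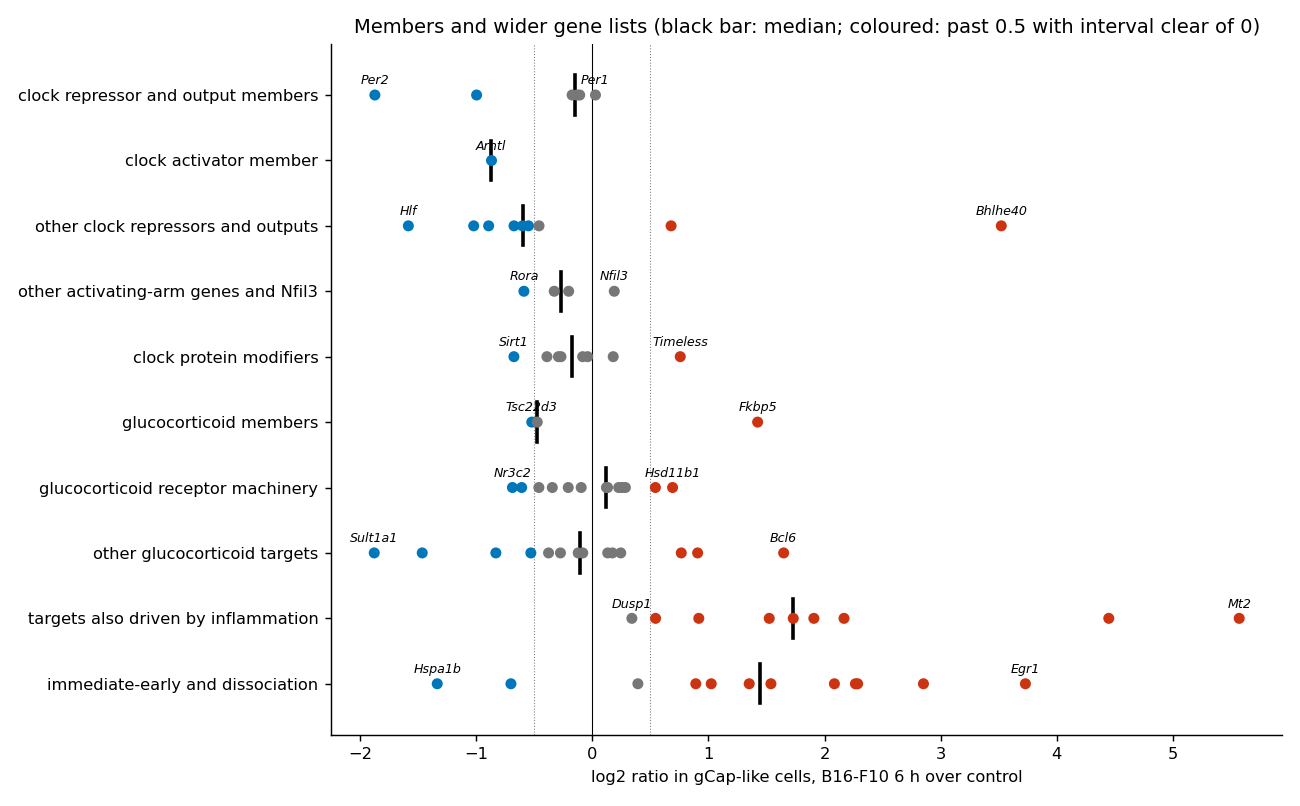
Log2 ratio of B16-F10 6 h over control in gCap-like cells for the genes of the wider clock and glucocorticoid lists and for the immediate-early list, 1 point per gene with enough UMIs, with the list's median marked. The median lies at -0.60 for the other clock repressors and outputs, at -0.10 for the other glucocorticoid targets and at 1.73 for the targets that inflammation also induces. The lists were chosen with earlier results of these data known.

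Immediate-early and dissociation genes also moved between the libraries, and Per1 and Sgk1 are known to respond to such stimuli. Of 12 in gCap cells 9 were higher, 2 were lower and 1 did not pass, with a median of 1.44. Fos stood at 57.6 and 281 CPM (log2 ratio 2.28), and Egr1 (3.73), Atf3 (2.85), Junb (2.27), Ier3 (2.08), Fosb (1.54) and Ier2 (1.35) were further examples, whereas the heat-shock gene Hspa1b (-1.34), which has a near-identical copy that may share its reads, was lower. Per1 was level beside them in the gCap sum (0.03). The part of this response in the values of the 10 genes was not tested.

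Markers of other cells moved with the library. In gCap cells the summed level of 8 myeloid markers was 15.1 CPM in control and 34.5 CPM in the B16-F10 6 h library, that of 8 mural markers 30.4 and 48.9 CPM, of 8 melanoma markers 26.9 CPM, with 3 of them at 0, and 50.8 CPM, of 8 platelet markers 36.1 and 42.7 CPM and of 5 erythroid markers 1112 and 1340 CPM. Epithelial markers went the other way, at 209 and 177 CPM, and lymphoid (2.38 and 4.13 CPM) and fibroblast markers (5.82 and 10.3 CPM) were near 0. In gCap cells without a single UMI of these markers, erythroid ones apart, the log2 ratio of Arntl was -0.98 and that of Fkbp5 1.62. In vein-like cells the erythroid sum was 522 and 3257 CPM, the fibroblast sum 41.0 and 112 CPM and the myeloid sum 9.81 and 33.3 CPM. In artery-like cells the platelet sum was 7.84 and 35.7 CPM and the erythroid sum 2080 and 1029 CPM, and in aCap cells the erythroid sum was 1990 and 1093 CPM. Without the cells that held such markers, erythroid ones apart, the log2 ratio in vein-like cells was -0.49 for Arntl and 0.93 for Fkbp5, and in aCap cells -0.49 for Arntl, -1.22 for Per2 and 1.78 for Nr1d1. The part of the erythroid RNA was not tested. The 9 control and 55 B16-F10 6 h myeloid cells had 6 and 94 UMIs of Fkbp5, 49.3 and 136 CPM. The 16 and 64 lymphoid cells had 4 and 28 UMIs of Arntl, 29.6 CPM (8.06 to 75.7) and 57.0 CPM (37.9 to 82.3), with overlapping intervals. The 78 melanoma cells of the B16-F10 6 h library held 1 UMI of Arntl, 19 of Nr1d2 and 16 of Fkbp5.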

How the data were processed

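The authors deposited a matrix of raw UMI counts per gene and cell barcode for each library, made with the 10x Chromium 3′ chemistry. The submitters' processing notes name Cell Ranger 7.2.0 and Seurat 4.4.0, and the study's methods name another Cell Ranger version. Whether intronic reads were counted is not given in the sources used here, which bears on the levels of long genes such as Fkbp5 and Arntl. The members and all gene lists were chosen with earlier results of these data known.

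Barcodes passed with 1000 to 5000 detected genes and less than 20% of UMIs from mitochondrial genes. Those with the highest Scrublet scores in scanpy 1.11.5 were then removed as presumed doublets, 564 control (6.72%) and 554 B16-F10 6 h barcodes (6.66%). These numbers were preset from a rate of 0.8% per 1000 cells and are not measured doublet rates. Both libraries were clustered together on 2960 variable genes, with the genes of all lists left out, 30 principal components, 20 neighbours and leidenalg 0.10.2 at resolution 0.8, which gave 27 clusters. A cluster was called endothelial when 6 of 8 endothelial markers were found in at least 50% of its cells. It was given the vessel class of which at least 3 markers and 50% of the list were at least 1.5-fold above the rest in at least 10% of its cells, and otherwise stayed unnamed. The UMIs of each class were added up within a library and divided by their total, as CPM, with exact Poisson intervals. Log2 ratios had exact conditional binomial intervals and shares Clopper-Pearson intervals, from scipy 1.17.1. The ratio, its interval and the call of higher or lower were tested on simulated gene sums that held counting error only. The other steps were not tested on simulated data.

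With 1 library per group the values have no replicate check. The genes named are the 10 members in all classes and, of each wider list, up to 8 past the limits in gCap-like cells by size of the ratio, with Nr3c1, Clock and Cry1 whatever their value, and Klf9 and Zbtb16 outside this rule. The pair shares, the sums without the cluster mostly of 1 library and those without clusters of few UMIs were added after the values had been seen. Alternatives were other limits on cells and clusters, scalings, thinning, UMI minimums, fold limits and the removal of cells with other cells' markers. Gene positions are on GRCm38 (mm10) and promoter windows are RefSeq's on GRCm38.p6.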

Additional observations from a re-analysis of the deposited data

Results flagged for a closer look

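Wee1, a kinase gene of the wider list of clock outputs, was higher in gCap-like cells of the B16-F10 6 h library (log2 ratio 0.68) and lower in vein-like cells (log2 ratio -0.98). The difference between these classes was not tested, since each group holds 1 library.

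Barcodes of 1 to 100 UMIs, which hold free RNA and no cell, enter the results above only through the estimates of free RNA. They carried Nr1d1, Fkbp5, Per1 and Dbp at a higher level in the B16-F10 6 h library than in control. Nr1d1 stood at 6.70 CPM (4.74 to 9.20) in control and 11.1 CPM (7.83 to 15.2) in the B16-F10 6 h near-empty barcodes. Its log2 ratio was 0.72, with overlapping intervals of the levels. Fkbp5 stood at 23.6 and 37.3 CPM, a log2 ratio of 0.66. The intervals of Per1 (15.9 and 19.8 CPM) and Dbp (2.47 and 3.20 CPM) overlapped too. The cells that this RNA came from are not known.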

How the results depend on the processing

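No paired analysis was possible because only 1 library stands for either condition, and likewise no replicate could be left out. Over 83 results and 700 alternative values, 624 were counted as the same as reported, 74 as moved and 2 as reversed, and the cause was not tested. A ratio was counted as moved when it left its counting interval. In gCap-like cells Per1 (-0.45 to 0.14), Nr1d1 (-0.19 to 0.79), Nr1d2 (-0.30 to 0.10) and Dbp (-0.29 to 0.14) also took both signs. Their reported intervals held 0, and these changes of sign were not counted as reversed. Both counted reversals came with the cells that had no UMI of other cells' markers. There Nr1d2 in vein-like cells gave a log2 ratio of -0.24 and Fkbp5 in LECs one of -1.57, the latter from 10 control and 4 B16-F10 6 h cells. In gCap-like cells the log2 ratio of Arntl ran from -0.98 to -0.78, that of Per2 from -2.50 to -1.61, that of Tef from -1.91 to -0.74 and that of Fkbp5 from 0.94 to 1.62 over 14 alternatives, each with its sign kept. Tsc22d3 (-0.67 to -0.29) and Sgk1 (-0.53 to -0.35) kept their sign and lay on both sides of the limit. The median of the 3 glucocorticoid-induced genes in gCap-like cells, -0.47 as reported, was -0.53 with all endothelial cells summed, -0.35 in cells without other cells' markers and -0.29 with gCap-like clusters under 200 control cells left out. That last alternative was chosen only once the data had been seen. The median of the 6 clock repressors and outputs, -0.15 as reported, was 0.03 with all endothelial cells summed and -0.45 over the 3 genes left in cells without other cells' markers. The count of 4 lower members was 2 in cells without other cells' markers and 1 at a log2 limit of 1. Counting error limits the comparison of Dbp outside gCap-like cells, of Per2 outside the capillary classes and of most of these genes in LECs.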

Other observations

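The members were also read in endothelial clusters that met no vessel class. A cluster led by Bean1, Fosl1 and Noct held 14 control and 330 B16-F10 6 h cells, and its B16-F10 6 h cells had 82.4 CPM of Fkbp5 and 4.53 CPM of Tsc22d3, where the gCap-like cells of the same library had 67.8 and 56.2 CPM. Noct itself is a deadenylase gene under clock control. A cluster led by the fatty acid handling genes Fabp4 and Rbp7 and by Aqp7 held 172 control and 30 B16-F10 6 h cells. In it Arntl stood at 102 CPM in control and 49.0 CPM in B16-F10 6 h cells, Fkbp5 at 61.7 and 190 CPM and Sgk1 at 512 and 337 CPM. Tsc22d3 stood at 123 and 131 CPM, Nr1d1 at 3.08 and 21.8 CPM and Nr1d2 at 25.7 and 43.5 CPM, with only 3 and 4 UMIs of Nr1d1 and 25 and 8 of Nr1d2. A cluster led by Sox9, Csf2 and Prnd held 0 control and 54 B16-F10 6 h cells, with 10 UMIs of Fkbp5, 2 of Arntl and 1 of Tsc22d3.

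The near-empty barcodes of the B16-F10 6 h library held less Tsc22d3 (70.5 against 141 CPM), Sgk1 (146 against 228 CPM), Arntl (17.5 against 23.5 CPM) and Per2 (1.17 against 5.47 CPM) than those of the control library. Clusters that mixed markers of several cell types held 761 control and 1323 B16-F10 6 h cells, and in them Arntl stood at 36.8 and 18.3 CPM and Tsc22d3 at 102 and 67.2 CPM.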
